A study of Mus musculus with 68 samples.

Results

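Dlx1 to Dlx6, the 6 distal-less homeobox genes of the mouse, were followed in pharyngeal arch 1 (PA1) and pharyngeal arch 2 (PA2) at 4 stages from embryonic day E9.0 to E10.5. They were taken by name: the 6 of 21948 genes in the deposited table whose Ensembl identifiers carry these symbols, and the rule uses no measured value. All 6 passed the filter on low values that left 18428 genes for testing. The 68 libraries were polyadenylated RNA from single dissected arches of CBA/Ca/J x C57BL/10 embryos, either wildtype or labelled Hoxa2-/-. With a shared replicate number taken as the same embryo, they came from 35 embryos, and 33 of these gave both arches. Each combination of arch and label had 3 libraries at E10.5 and 4 or 5 at each earlier stage. The labels name no Cre, no transgene and no pooling of embryos, and they do not say which stretch of Hoxa2 the Hoxa2-/- allele removes.

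The Hoxa2 values did not follow the label Hoxa2-/-. Hoxa2 ran from 20.2 to 63.3 CPM (reads scaled to a common library total by the authors) in wildtype PA2 and from 16.8 to 147 CPM in PA2 labelled Hoxa2-/-. At E10.5 the range was 116 to 147 CPM in PA2 labelled Hoxa2-/- and 54.5 to 63.3 CPM in wildtype PA2. In PA1 it was at most 0.926 CPM under either label. Whether these values count reads outside the deleted stretch was not tested, so the groups are named by their label throughout. A division that the labels do not give also ran through the libraries. Ski, a corepressor of SMAD signalling, was at 26.3 to 108 CPM in 24 libraries and at 9.28 to 22.8 CPM in the other 44. The 24 were the wildtype embryos of every stage except E10.0, and the 44 were wildtype E10.0 with everything labelled Hoxa2-/-. Label and division therefore cannot be told apart except at E10.0, where both labels lay on the same side.

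Dlx genes encode homeodomain transcription factors and lie in the genome as convergently transcribed pairs. In the neural crest mesenchyme of the arches they are expressed in nested domains along the dorsoventral axis. Dlx1 and Dlx2 cover most of the arch, Dlx5 and Dlx6 its lower part, and Dlx3 and Dlx4 a still smaller region toward the tip. Endothelin 1, released by the epithelium and other cells of the ventral arch, acts through the receptor Ednra on the crest cells and maintains Dlx5, Dlx6, Dlx3 and Dlx4 there. Loss of Dlx5 and Dlx6 is known to give the lower jaw the form of an upper jaw. Whole arches were sequenced here, so a level sums over the dorsoventral axis. Fewer cells expressing a gene and less of its RNA in each cell cannot be told apart in such samples.

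The gene models were those of GENCODE M21 on GRCm38. Dlx1 (ENSMUSG00000041911, chr2:71528113-71533981, plus strand) and Dlx2 (ENSMUSG00000023391, chr2:71543408-71546754, minus strand) are 9426 bases apart. Dlx3 (ENSMUSG00000001510, chr11:95120119-95125296, plus strand) and Dlx4 (ENSMUSG00000020871, chr11:95140447-95146263, minus strand) are 15150 bases apart. Dlx6 (ENSMUSG00000029754, chr6:6863334-6868568, plus strand) and Dlx5 (ENSMUSG00000029755, chr6:6877805-6882085, minus strand) are 9236 bases apart. Each pair thus faces tail to tail. Antisense transcripts share 335 exon bases with Dlx1, 79 with Dlx4 and 104 with Dlx6. The use of strand in counting is not given in the sources used here, so reads from these stretches cannot be assigned to a strand.

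The levels of the 6 genes differed widely when compared per kilobase of exon. In wildtype PA1 at E9.0 the mean was 34.1 CPM per kb for Dlx2, 24.3 for Dlx5, 12.8 for Dlx3, 6.59 for Dlx1, 2.72 for Dlx6 and 0.296 for Dlx4. In wildtype PA2 at E10.5 Dlx3 stood first with 36.8 CPM per kb, ahead of Dlx5 with 26.6, Dlx2 with 24.8, Dlx1 with 12.5, Dlx4 with 3.96 and Dlx6 with 3.94. The order of the members thus changed between these groups, with Dlx3 moving from behind Dlx5 to the front. In PA2 labelled Hoxa2-/- at E10.5 the order was Dlx2 with 42.1 CPM per kb, then Dlx3 with 31.4 and Dlx5 with 29.7.

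**Figure D1:**
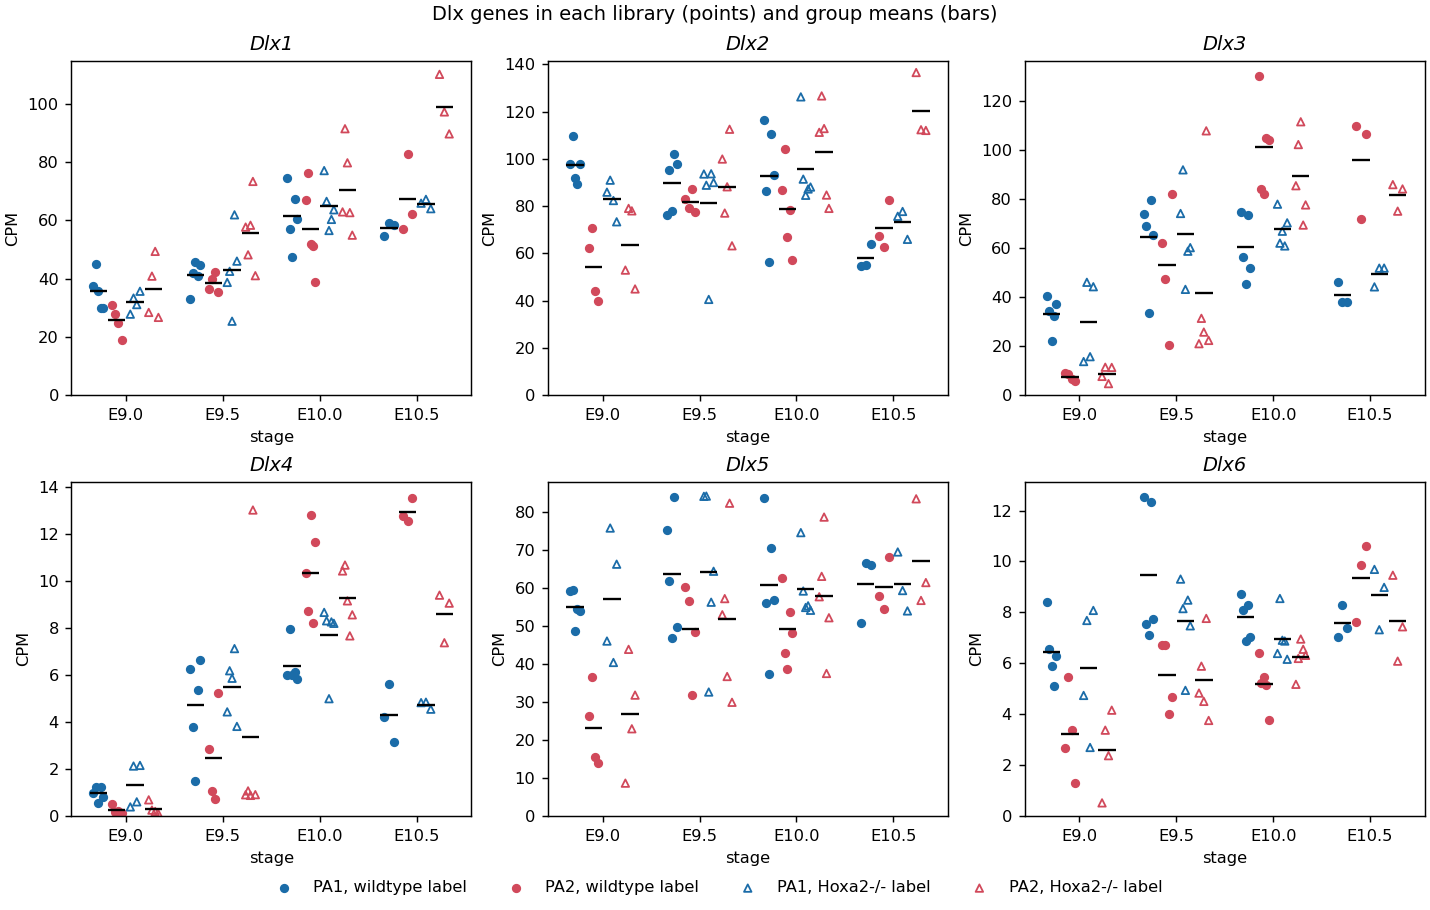
CPM of each Dlx gene in every library, by stage from E9.0 to E10.5. Points are libraries, black bars are group means, PA1 is blue and PA2 red, filled circles carry the wildtype label and open triangles the Hoxa2-/- label, and each panel has its own linear axis. The PA2 values of Dlx3, Dlx4 and Dlx5 are lowest at E9.0. Wildtype PA2 values of Dlx2 run from 39.7 to 70.8 CPM at E9.0 and from 62.8 to 82.5 CPM at E10.5. Under the label Hoxa2-/- they run from 45.0 to 79.0 CPM and from 112 to 136.5 CPM.

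At E9.0 most Dlx genes were lower in PA2 than in PA1, and the difference was widest for Dlx3. Dlx3, Dlx5, Dlx6 and Dlx2 passed the test in wildtype embryos, that is 4 of 6 members, where 18.7% of all genes tested passed in either direction. The median difference over the 6 members was -0.89 on the log2 scale, beside -0.01 over all genes. Differences here and below are log2 differences of CPM + 1 from a limma fit over all 68 libraries, with standard error (SE) and Benjamini-Hochberg adjusted p over 18428 genes. The added 1 makes the change of low genes look smaller than it is.

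Dlx3, a member of the most ventrally restricted pair, had 40.5, 34.3, 22.0, 32.5 and 37.2 CPM in the 5 wildtype PA1 libraries of E9.0. The 4 wildtype PA2 libraries had 8.91, 8.55, 6.73 and 5.90 CPM. Every PA2 library was below every PA1 library, with a difference of -1.997 (SE 0.32, adjusted p = 3.6e-06). In embryos labelled Hoxa2-/- the PA1 libraries had 13.7, 46.1, 15.7 and 44.3 CPM and the PA2 libraries 7.67, 11.4, 4.73 and 11.4 CPM. These groups did not overlap either, and the difference was -1.53 (SE 0.34, adjusted p = 0.00051), where 24.6% of all genes passed. The PA1 values of these embryos fell into a low and a high pair, with embryos 1 and 3 as the low pair. This difference and those of Dlx5 and Dlx6 below did not pass when the model held just these groups (Dlx3 adjusted p = 0.061, Dlx5 0.11 and Dlx6 0.18).

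Dlx4, the partner of Dlx3, was close to the limit of detection at E9.0. Wildtype PA1 had 0.993, 1.25, 0.564, 1.24 and 0.785 CPM, and wildtype PA2 had 0.515, 0.160, 0.221 and 0.108 CPM, which are 10, 3, 4 and 2 reads. The groups did not overlap, and the difference of -0.65 (SE 0.33, adjusted p = 0.18) did not pass the test. A smaller added constant of 0.25 gave -1.31 (adjusted p = 0.027), and DESeq2 on the recovered reads gave -1.92 (adjusted p = 0.013). A model of just these groups gave -0.65 (adjusted p = 0.0098). This call thus depends on how low values are treated and on which libraries set the spread. In embryos labelled Hoxa2-/- the PA2 libraries had 8, 3, 2 and 1 reads, and the difference was -0.75 (SE 0.35, adjusted p = 0.11). There the added constant of 0.25 gave -1.36 (adjusted p = 0.023), edgeR gave -2.11 (adjusted p = 0.048) and DESeq2 -2.10 (adjusted p = 0.012). The paired fit described below, with the embryo as replicate block, gave -0.75 (adjusted p = 0.037).

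Dlx5, which with Dlx6 is needed for lower jaw identity, had 59.2, 59.3, 48.5, 54.3 and 53.9 CPM in wildtype PA1 at E9.0 and 26.3, 36.6, 15.4 and 14.0 CPM in PA2. The groups were separate, with a difference of -1.32 (SE 0.28, adjusted p = 0.00049). Dlx6 had 8.41, 6.56, 5.90, 5.11 and 6.28 CPM in PA1 and 2.68, 5.45, 3.37 and 1.299 CPM in PA2. The second PA2 library lay within the PA1 range, and the difference was -0.91 (SE 0.24, adjusted p = 0.0039). Without the PA2 library of embryo 5 it was -0.65 (adjusted p = 0.061). In embryos labelled Hoxa2-/- the Dlx5 difference was -1.22 (SE 0.30, adjusted p = 0.0018) and that of Dlx6 -0.97 (SE 0.25, adjusted p = 0.0029). In those embryos Dlx5 was at 8.61, 43.8, 22.9 and 31.8 CPM in PA2 and 46.0, 75.7, 40.3 and 66.2 CPM in PA1, so the groups overlapped. Without the PA2 library of embryo 1, which had the lowest Dlx5 and a Dlx6 of 0.511 CPM, the Dlx6 difference was -0.59 (adjusted p = 0.059).

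Dlx1 and Dlx2, the pair with the widest arch domains, differed less between the arches. Dlx2 had 97.6, 109.8, 91.7, 89.4 and 97.8 CPM in wildtype PA1 at E9.0 and 62.3, 70.8, 44.2 and 39.7 CPM in PA2. The groups did not overlap, and the difference was -0.87 (SE 0.19, adjusted p = 0.00068). In embryos labelled Hoxa2-/-, Dlx2 was lower in PA2 in 4 of 4 embryos, but the difference of -0.41 (SE 0.20, adjusted p = 0.13) did not pass. Dlx1 had 37.6, 45.1, 35.7, 29.8 and 29.8 CPM in wildtype PA1 and 31.1, 27.9, 24.6 and 19 CPM in PA2, with a difference of -0.46 (SE 0.18, adjusted p = 0.060). In a paired fit with each embryo as a replicate block, Dlx1 passed with -0.46 (adjusted p = 0.043). It also passed without the PA2 library of embryo 1 (-0.56, adjusted p = 0.036), or without the PA1 library of embryo 4 (-0.52, adjusted p = 0.044) or embryo 5 (-0.52, adjusted p = 0.049). In embryos labelled Hoxa2-/- Dlx1 was higher in PA2 in 3 of 4 embryos, with a difference of 0.14 (95% confidence interval -0.23 to 0.52).

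The make-up of the dissected tissue moved with this comparison. At E9.0 the summed CPM of 6 neural crest mesenchyme markers (Prrx1, Prrx2, Twist1, Pdgfra, Tfap2b and Snai1) ran from 434 to 486 in wildtype PA1 and from 304 to 337 in wildtype PA2. A list of 5 heart muscle genes (Myh6, Myh7, Myl7, Tnnt2 and Nppa), of which 4 were measured, summed to 8.92 to 34.9 CPM in PA1 over both labels and to 658, 19.9, 623 and 625.4 CPM in the wildtype PA2 libraries. Cranial ganglion markers had a median sum of 34.4 CPM in PA1 and 150.0 CPM in PA2. The PA2 library with 19.9 CPM of heart genes had the highest Dlx2, Dlx5 and Dlx6 of its group, while its Dlx3 of 8.55 CPM lay inside the range of the other 3. Per 100 CPM of mesenchyme markers, Dlx3 averaged 7.23 in wildtype PA1 and 2.31 in wildtype PA2, and Dlx5 11.9 and 7.09. Dlx2 averaged 21 and 16.7 on this scale, and Dlx1 7.66 and 7.87. The ranges on that scale did not overlap for Dlx3, with 4.55 to 9.05 in PA1 and 1.94 to 2.67 in PA2. They overlapped for all other members. Dlx5 had 10 to 13.2 in PA1 and 4.58 to 11.4 in PA2, and Dlx2 18.9 to 22.6 and 13.1 to 22.1. Dlx6 had 1.18 to 1.88 and 0.427 to 1.7, and Dlx4 0.116 to 0.286 and 0.0356 to 0.153. The part of the other tissues in the differences was not tested.

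At E9.5 Dlx6 was the member that passed the test in wildtype embryos, where 26.3% of all genes did. It had 12.5, 7.53, 7.11, 12.4 and 7.73 CPM in PA1 and 6.72, 6.70, 4.01 and 4.67 CPM in PA2. The groups did not overlap, and the difference was -0.67 (SE 0.24, adjusted p = 0.030). This call was lost without the PA1 library of embryo 1 (-0.56, adjusted p = 0.10) or embryo 4 (-0.57, adjusted p = 0.085), and without the PA2 library of embryo 3 (-0.55, adjusted p = 0.13) or embryo 5 (-0.61, adjusted p = 0.094). An added constant of 0.25 gave -0.74 (adjusted p = 0.055). Dlx3 had 74.1, 69.2, 33.5, 79.8 and 65.4 CPM in wildtype PA1 and 62.1, 47.3, 20.3 and 82.2 CPM in PA2. The Dlx3 groups overlapped, with a difference of -0.38 (95% confidence interval -1.02 to 0.26). In embryo 3 Dlx3 was the lowest of its group in both arches, and that embryo's PA2 library had 564 CPM of heart genes. Dlx4 was lower in PA2 in 4 of 4 embryos, with a difference of -0.80 (SE 0.33, adjusted p = 0.064). The replicate block gave -0.74 for it (adjusted p = 0.040), and it passed without the PA1 library of embryo 3 (-1.07, adjusted p = 0.019) or the PA2 library of embryo 5 (-1.15, adjusted p = 0.016).

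In embryos labelled Hoxa2-/- at E9.5, Dlx3 and Dlx4 passed the test as lower in PA2, where 9.58% of all genes passed. Dlx3 had 21.0, 31.4, 25.8, 107.9 and 22.4 CPM in the 5 PA2 libraries and 74.2, 92.0, 43.2, 58.8 and 60.2 CPM in PA1. Dlx4 had 0.896, 1.06, 0.871, 13.0 and 0.903 CPM in PA2 and 4.42, 6.17, 5.85, 7.11 and 3.80 CPM in PA1. Embryo 4 thus stood apart from the other 4 in PA2 for both genes of the pair. The difference was -0.91 for Dlx3 (SE 0.30, adjusted p = 0.041) and -1.15 for Dlx4 (SE 0.31, adjusted p = 0.011). The PA2 library of embryo 4 had 7.83 CPM of heart genes, against 31.8 to 465 CPM in the other 4. Both calls were fragile. Dlx3 lost it without the PA2 library of embryo 1, 2, 3 or 5 (-0.75, -0.89, -0.82 and -0.77, adjusted p = 0.13, 0.083, 0.11 and 0.14) and without the PA1 library of embryo 1, 2, 4 or 5 (-0.85, -0.78, -0.94 and -0.93, adjusted p = 0.076, 0.12, 0.061 and 0.062). Dlx4 lost it without the PA2 library of embryo 3 (-0.99, adjusted p = 0.052) or embryo 5 (-1.0, adjusted p = 0.051). On reads, edgeR gave -0.64 for Dlx3 (adjusted p = 0.20) and -0.69 for Dlx4 (adjusted p = 0.37). A model of just these groups gave them adjusted p of 0.21 and 0.22. Dlx1 was higher in PA2 in 4 of 5 embryos, at 0.40 (SE 0.17, adjusted p = 0.13), and passed only without the PA1 library of embryo 4 (0.54, adjusted p = 0.038).

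By E10.0 and E10.5 the order of the arches had turned for Dlx3 and Dlx4, though no member passed the test. At these stages 5.94% and 1.52% of all genes passed in wildtype embryos, and 4.23% and 1.37% in embryos labelled Hoxa2-/-. Wildtype Dlx3 at E10.0 had 74.9, 56.6, 45.5, 73.5 and 52.0 CPM in PA1 and 130.1, 84.0, 82.1 and 104.3 CPM in 4 PA2 libraries, with the fifth between the highest 2 of these. At E10.5 it had 46.3, 37.9 and 38.0 CPM in PA1 and 109.9, 71.8 and 106.5 CPM in PA2. PA2 lay above PA1 with no overlap at both stages, and the differences were 0.74 (SE 0.30, adjusted p = 0.15) and 1.199 (SE 0.39, adjusted p = 0.13). With the replicate block they were 0.74 (adjusted p = 0.025) and 1.2 (adjusted p = 0.010). Dlx4 at E10.5 had 4.19, 5.59 and 3.12 CPM in wildtype PA1 and 12.7, 12.5 and 13.5 CPM in PA2. Its groups were far apart, with a difference of 1.42 (SE 0.40, adjusted p = 0.055), or an adjusted p of 0.0078 with the replicate block. An added constant of 5 gave 0.95 for Dlx4 (adjusted p = 0.0037), and median-of-ratios scaling 1.43 (adjusted p = 0.049). A model of just the groups compared passed Dlx3 (adjusted p = 0.010) and Dlx4 (0.016) as higher and Dlx6 (0.036) as lower in wildtype PA2 at E10.0, and Dlx3 (0.0071) and Dlx4 (0.0044) as higher at E10.5.

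Embryos labelled Hoxa2-/- gave the same order at E10.0 and E10.5. Dlx3 was higher in PA2 in 5 of 5 embryos at E10.0 and 3 of 3 at E10.5, with differences of 0.38 (SE 0.30, adjusted p = 0.57) and 0.72 (SE 0.39, adjusted p = 0.53). Dlx4 was higher in PA2 in 4 of 5 and 3 of 3 embryos. At E10.5 Dlx1 had 110, 97.1 and 89.6 CPM in PA2 and 65.8, 67.2 and 64.0 CPM in PA1. Dlx2 had 136.5, 112.3 and 112 CPM in PA2 and 75.7, 77.7 and 65.9 CPM in PA1. Neither pair of groups overlapped, and the differences were 0.58 for Dlx1 (SE 0.22, adjusted p = 0.25) and 0.71 for Dlx2 (SE 0.23, adjusted p = 0.15), the latter with an adjusted p of 0.049 under the replicate block. The model of just these groups passed Dlx1 (adjusted p = 0.012), Dlx2 (0.0091), Dlx3 (0.0054) and Dlx4 (0.042). Dlx5 and Dlx6 lay closer to 0 at E10.5, where their differences were -0.02 (95% confidence interval -0.71 to 0.68) and 0.26 (-0.31 to 0.84) in wildtype embryos. Dlx6 was then higher in PA2 in 3 of 3 wildtype embryos, against 0 of 4 at E9.0, and in 0 of 3 labelled Hoxa2-/-. Wildtype Dlx6 at E10.0 was still lower in PA2 in 5 of 5 embryos, at -0.52 (SE 0.22, adjusted p = 0.18). Over the 8 comparisons of the arches, the paired fit raised the number of member tests passed from 5 to 10 of 24 in wildtype embryos and from 5 to 7 of 24 under the label Hoxa2-/-.

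**Figure D2:**
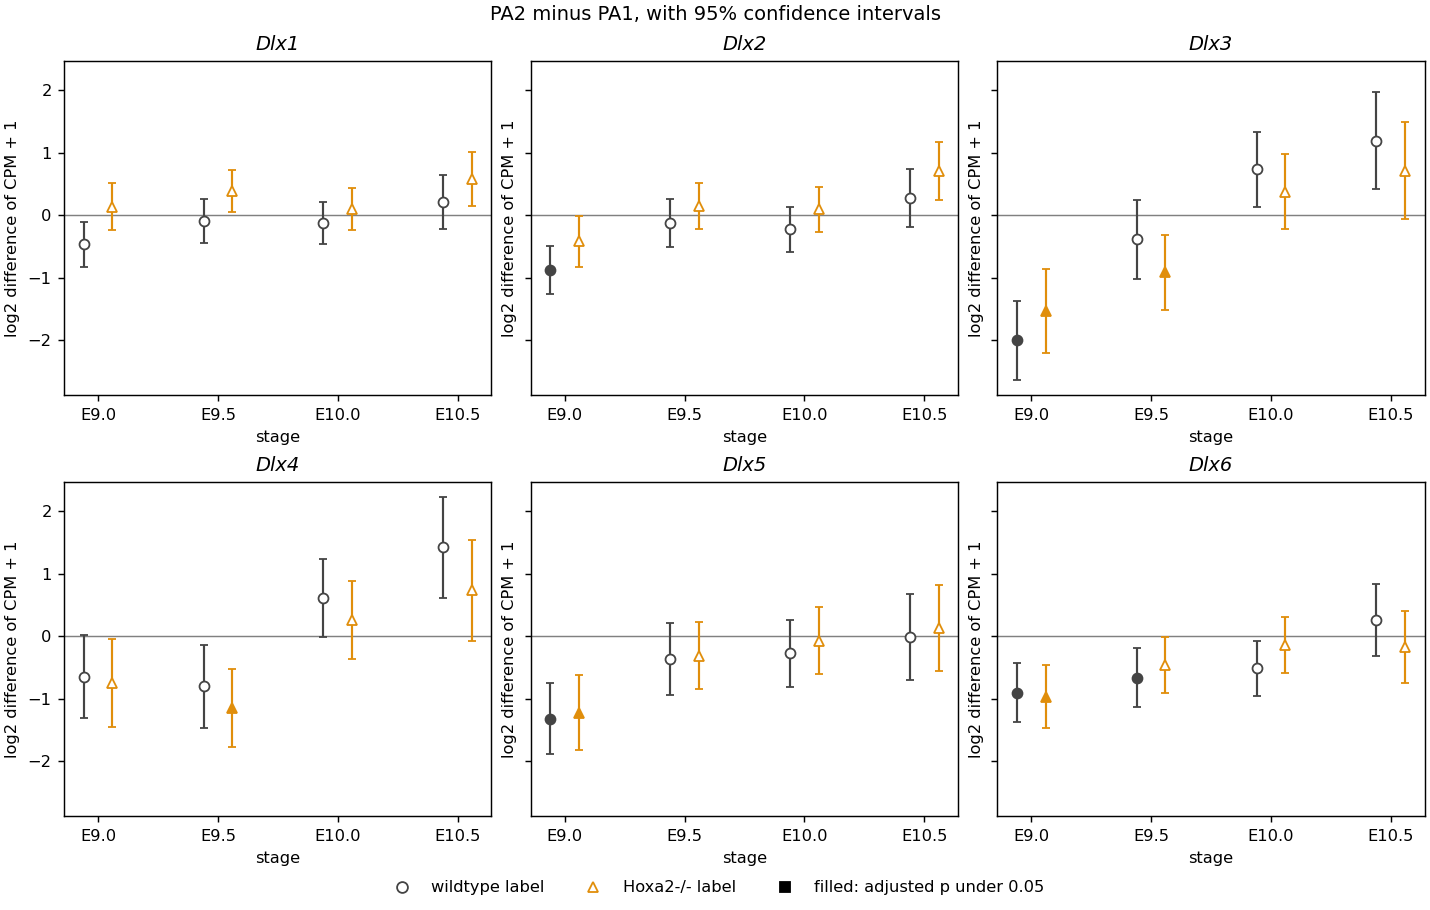
Log2 difference between PA2 and PA1 for each Dlx gene by stage, with 95% confidence intervals. Circles are wildtype embryos, triangles embryos labelled Hoxa2-/-, and filled symbols have an adjusted p under 0.05. Dlx3 and Dlx4 run from below 0 at E9.0 to above 0 at E10.5, and Dlx5 from -1.32 to -0.02 in wildtype embryos.

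The change of the arch difference between E9.0 and E10.5 was itself tested. In wildtype embryos it passed for Dlx3 with 3.20 (SE 0.50, adjusted p = 1.4e-05), Dlx4 with 2.07 (SE 0.52, adjusted p = 0.012) and Dlx2 with 1.15 (SE 0.30, adjusted p = 0.017), and 3.35% of all genes passed. Under the label Hoxa2-/- it passed for Dlx3 with 2.25 (SE 0.51, adjusted p = 0.0039) and Dlx2 with 1.12 (SE 0.31, adjusted p = 0.018), and 7.33% of all genes passed. Each of these 5 calls was in the direction of a gain of PA2 over PA1. With the replicate block, wildtype Dlx5 (1.35, adjusted p = 0.0093) and Dlx6 (1.2, adjusted p = 0.012) and, under the label Hoxa2-/-, Dlx4 (1.49, adjusted p = 0.019) and Dlx5 (1.35, adjusted p = 0.0063) also passed, which made 9 of 12. The wildtype call of Dlx2 was lost without the PA2 library of embryo 5 at E9.0 (1.01, adjusted p = 0.054), the PA1 library of embryo 1 at E10.5 (1.11, adjusted p = 0.051) or the PA2 library of embryo 3 at E10.5 (1.04, adjusted p = 0.069). That of Dlx4 was lost without the PA1 library of embryo 3 at E10.5 (1.90, adjusted p = 0.051). Dlx2 under the label Hoxa2-/- was lost without the PA2 library of embryo 1 at E10.5 (1.03, adjusted p = 0.054). Calls also appeared on leaving out a PA2 library of E9.0. Wildtype Dlx5 (1.55, adjusted p = 0.033) and Dlx6 (1.41, adjusted p = 0.014) gained one without embryo 2. Under the label Hoxa2-/- Dlx4 did without embryo 1 (1.62, adjusted p = 0.049) and Dlx5 without embryo 2 (1.65, adjusted p = 0.013) or 4 (1.5, adjusted p = 0.042), or without the PA1 library of embryo 3 (1.5, adjusted p = 0.048). The sum of mesenchyme markers moved with this change. Its wildtype medians were 465 CPM in PA1 and 328 CPM in PA2 at E9.0 and 581 and 582 CPM at E10.5, and its part was not tested. Per 100 CPM of these markers, wildtype Dlx3 at E10.5 averaged 6.8 in PA1 and 17.3 in PA2.

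Over time most Dlx genes rose in PA2. Between E9.0 and E10.5, 5 of 6 members rose in wildtype PA2, where 36.9% of all genes changed in either direction, and the members' median was 1.41 beside -0.01 over all genes. Dlx3 went from 5.90 to 8.91 CPM in the 4 libraries of E9.0 to 71.8 to 109.9 CPM in the 3 of E10.5, a rise of 3.5 (SE 0.36, adjusted p = 1.5e-11) and 12.8-fold in group means. Dlx4 rose by 3.49 (SE 0.38, adjusted p = 6.3e-11), from the 2 to 10 reads given above to at least 12.5 CPM in each library. Dlx5 rose by 1.44 (SE 0.32, adjusted p = 0.00031), Dlx6 by 1.39 (SE 0.27, adjusted p = 3.7e-05) and Dlx1 by 1.36 (SE 0.20, adjusted p = 2.3e-07). Dlx2 differed by 0.41 (SE 0.22, adjusted p = 0.14), and its groups overlapped. The make-up of the tissue moved over the same stages. In wildtype PA2 the mesenchyme marker sum went from 304 to 337 CPM at E9.0 to 497 to 617 CPM at E10.5. The median sum of heart genes went from 624 to 1.79 CPM and that of 7 epithelial markers from 854 to 422 CPM. Per 100 CPM of mesenchyme markers, Dlx3 averaged 2.31 at E9.0 and 17.3 at E10.5, Dlx5 7.09 and 10.8, Dlx1 7.87 and 11.9, and Dlx2 16.7 and 12.8. On that scale the stages overlapped for Dlx5 (4.58 to 11.4 and 8.84 to 13.7) and Dlx6 (0.427 to 1.7 and 1.31 to 2.13). They also overlapped for Dlx2, and not for Dlx1, Dlx3 or Dlx4. The part of the other tissues in these rises was not tested.

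PA2 labelled Hoxa2-/- gave the same picture from libraries that all lay on the same side of the library division. All 6 members rose between E9.0 and E10.5, where 30.9% of all genes changed. The rise was 3.14 for Dlx3 (SE 0.36, adjusted p = 5.7e-10), 2.90 for Dlx4 (SE 0.38, adjusted p = 1.6e-08), 1.48 for Dlx5 (SE 0.32, adjusted p = 0.00028) and 1.39 for Dlx6 (SE 0.27, adjusted p = 4.9e-05). Dlx1 rose by 1.46 (SE 0.20, adjusted p = 6.7e-08) and Dlx2 by 0.94 (SE 0.22, adjusted p = 0.00057). A model of just these groups gave the Dlx5 rise an adjusted p of 0.060. The mesenchyme marker sum went here from 280 to 402 CPM at E9.0 to 496 to 524 CPM at E10.5, and the median of heart genes from 395 to 2.31 CPM. Per 100 CPM of mesenchyme markers Dlx3 averaged 2.45 and 15.9, and Dlx2 17.9 and 23.5.

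In PA1 the picture was mixed. In wildtype PA1 between E9.0 and E10.5, Dlx1 rose by 0.69 (SE 0.19, adjusted p = 0.0029) and Dlx4 by 1.42 (SE 0.36, adjusted p = 0.0011), while Dlx2 fell by 0.74 (SE 0.21, adjusted p = 0.0031), and 42.5% of all genes changed. Dlx2 went from 89.4 to 109.8 CPM at E9.0 to 54.6, 55.2 and 64.0 CPM at E10.5, so that the stages did not overlap. Dlx3 (0.30, SE 0.35), Dlx5 (0.14, SE 0.31) and Dlx6 (0.21, SE 0.26) did not pass. In PA1 labelled Hoxa2-/- Dlx1 rose by 1.02 (SE 0.20, adjusted p = 7.2e-05) and Dlx4 by 1.41 (SE 0.38, adjusted p = 0.0029), where 31.2% of all genes changed. Dlx2 there differed by -0.18 (95% confidence interval -0.62 to 0.25). Dlx3 differed by 0.90 (SE 0.36, adjusted p = 0.051), and passed without either of the high E9.0 libraries, embryo 2 (1.17, adjusted p = 0.015) or embryo 4 (1.15, adjusted p = 0.017). Dlx6 did so too without embryo 2 (0.74, adjusted p = 0.045) or embryo 4 (0.76, adjusted p = 0.036).

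Single steps between stages showed when they rose. From E9.0 to E9.5, 5 of 6 members rose in wildtype PA2 and 5 of 6 in PA2 labelled Hoxa2-/-, where 6.68% and 16.9% of all genes changed. The largest was Dlx3, with 2.52 (SE 0.34, adjusted p = 1.1e-06) and 1.88 (SE 0.32, adjusted p = 4.7e-05). In wildtype PA2 Dlx4 rose by 1.29 (SE 0.35, adjusted p = 0.017), Dlx5 by 1.13 (SE 0.30, adjusted p = 0.015), Dlx2 by 0.62 (SE 0.20, adjusted p = 0.049) and Dlx1 by 0.59 (SE 0.19, adjusted p = 0.045). In PA2 labelled Hoxa2-/- Dlx4 rose by 1.16 (adjusted p = 0.012), Dlx5 by 1.04 (adjusted p = 0.0084), Dlx6 by 0.92 (adjusted p = 0.0054) and Dlx1 by 0.62 (adjusted p = 0.012). In PA1 Dlx4 rose in wildtype embryos over this step (1.45, SE 0.31, adjusted p = 0.0035), where 6.73% of all genes changed. Wildtype Dlx3 in PA1 differed by 0.90 (SE 0.30, adjusted p = 0.055). It passed with an added constant of 5 (adjusted p = 0.048), a filter at 5 CPM (0.044), a model of just these groups (0.048), edgeR (0.046) and DESeq2 (0.033). Under the label Hoxa2-/- Dlx4 (1.56, SE 0.33, adjusted p = 0.0026) and Dlx3 (1.26, SE 0.32, adjusted p = 0.014) did, where 2.85% did.

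Several of these steps rested on few libraries or on the processing. In wildtype PA2, Dlx1 was at an adjusted p of 0.052 with an added constant of 5, 0.051 with no filter and 0.052 with edgeR. Dlx2 was at 0.051 with an added constant of 0.25, 0.056 with no filter, 0.050 with median-of-ratios scaling and 0.063 with edgeR, and Dlx4 at 0.10 with an added constant of 5. On leaving out libraries, Dlx1 lost its call without embryo 2, 4 or 5 of E9.0 or any embryo of E9.5 (0.45 to 0.63, adjusted p from 0.051 to 0.17). Dlx2 lost it without embryo 4 or 5 of E9.0 or any embryo of E9.5 (0.48 to 0.64, adjusted p from 0.059 to 0.18). Dlx5 lost it without embryo 4 (0.98, adjusted p = 0.071) or 5 of E9.0 (0.93, adjusted p = 0.074) or embryo 1 (1.02, adjusted p = 0.056) or 5 of E9.5 (1.12, adjusted p = 0.053). Dlx4 lost it without embryo 1 (1.18, adjusted p = 0.058) or embryo 5 of E9.5 (0.95, adjusted p = 0.17), and Dlx6 gained it without embryo 2 of E9.0 (0.95, adjusted p = 0.021). In PA2 labelled Hoxa2-/-, leaving out embryo 4 of E9.5 left Dlx4 at 0.59 (adjusted p = 0.13), Dlx5 at 0.86 (adjusted p = 0.051) and Dlx1 at 0.52 (adjusted p = 0.062). Without embryo 1 of E9.0 Dlx5 was at 0.60 (adjusted p = 0.10) and Dlx6 at 0.55 (adjusted p = 0.068). Without embryo 3 of E9.0 Dlx4 was at 1.12 (adjusted p = 0.057), and without embryo 4 of E9.0 Dlx1 was at 0.49 (adjusted p = 0.071). Dlx2 gained the call without embryo 2 of E9.0 (0.59, adjusted p = 0.034) or embryo 5 of E9.5 (0.59, adjusted p = 0.040). In PA1, Dlx3 under the label Hoxa2-/- lost it without embryo 1 (0.97, adjusted p = 0.17) or 3 of E9.0 (1.04, adjusted p = 0.14), and wildtype Dlx3 gained it without embryo 3 of E9.5 (1.12, adjusted p = 0.034). The Dlx3 rise in PA2 kept its call under each omission of a single library, under both labels. In a model of just the groups compared, the step in PA2 labelled Hoxa2-/- did not pass for any member (Dlx3 adjusted p = 0.15, Dlx1 0.23, Dlx6 0.24, Dlx5 0.26 and Dlx4 0.30). In wildtype PA2 that model kept Dlx3 and lost Dlx1 (adjusted p = 0.060), Dlx5 (0.068), Dlx2 (0.073) and Dlx4 (0.074), and in PA1 labelled Hoxa2-/- it lost Dlx3 (0.17) and Dlx4 (0.053).

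In PA2 fewer members passed at the later steps. From E9.5 to E10.5 in wildtype PA2, Dlx4 rose by 2.20 (SE 0.38, adjusted p = 6.5e-06), Dlx3 by 0.98 (SE 0.36, adjusted p = 0.029), Dlx1 by 0.78 (SE 0.20, adjusted p = 0.0020) and Dlx6 by 0.68 (SE 0.27, adjusted p = 0.043), where 34.3% of all genes changed. In wildtype PA1 Dlx1 rose by 0.48 (SE 0.19, adjusted p = 0.042) and Dlx2 fell by 0.62 (SE 0.21, adjusted p = 0.014), where 40.9% changed. Steps into and out of wildtype E10.0 were not tested, since those libraries lay on the other side of the library division. From E9.5 to E10.0 under the label Hoxa2-/-, Dlx3 (1.37, SE 0.30, adjusted p = 0.0028) and Dlx4 (1.83, SE 0.31, adjusted p = 0.00015) rose in PA2, where 4.57% of all genes changed, and Dlx1 rose in PA1 (0.63, SE 0.17, adjusted p = 0.018), where 4.40% did. From E10.0 to E10.5 no member passed in either arch, where 0.298% of all genes passed in PA1 and 0.239% in PA2.

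Processing and omissions also touched these later steps. From E9.5 to E10.5 in wildtype PA2, Dlx3 was at 0.86 with edgeR (adjusted p = 0.056) and 0.87 with DESeq2 (adjusted p = 0.062). With an added constant of 0.25 Dlx6 was at 0.75 there (adjusted p = 0.073). In wildtype PA2, Dlx3 was at 0.59 (adjusted p = 0.22) without embryo 3 of E9.5, at 0.87 (adjusted p = 0.11) without embryo 1 of E10.5 and at 0.90 (adjusted p = 0.095) without embryo 3 of E10.5. Dlx6 was at 0.56 (adjusted p = 0.14) without embryo 3 of E9.5, 0.62 (adjusted p = 0.096) without embryo 5 of E9.5, 0.64 (adjusted p = 0.11) without embryo 2 of E10.5 and 0.59 (adjusted p = 0.14) without embryo 3 of E10.5. In wildtype PA1 Dlx1 lost its call without embryo 1, 2 or 4 of E9.5 or any embryo of E10.5 (0.40 to 0.51, adjusted p from 0.051 to 0.11). Dlx2 was at -0.58 (adjusted p = 0.056) and -0.59 (adjusted p = 0.054) without embryos 1 and 2 of E10.5. In PA1 labelled Hoxa2-/- the Dlx1 step from E9.5 to E10.0 was at 0.61 (adjusted p = 0.057) without embryo 1 and at 0.46 (adjusted p = 0.11) without embryo 3 of E9.5. The Dlx4 step in wildtype PA2 kept its call under each omission. A model of just the groups compared lost the steps of Dlx3 (adjusted p = 0.080) and Dlx4 (0.078) in PA2 and of Dlx1 (0.11) in PA1 from E9.5 to E10.0 under the label Hoxa2-/-, and that of Dlx3 in wildtype PA2 from E9.5 (0.062).

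The ratio between partners of a pair moved over time for Dlx2 and Dlx1, and less for Dlx6 and Dlx5. For Dlx4 and Dlx3 in PA2 the movement depended on how low values were treated. The log2 ratio of Dlx2 to Dlx1 reads averaged 1.47 (SD 0.18, n = 5) in wildtype PA1 at E9.0, 1.13 (SD 0.21, n = 5) at E9.5, 0.57 (SD 0.18, n = 5) at E10.0 and 0.01 (SD 0.12, n = 3) at E10.5. No library of E9.0 reached the range of E10.0 or E10.5. Wildtype PA2 went from 1.06 (SD 0.21, n = 4) to 0.08 (SD 0.43, n = 3), PA1 labelled Hoxa2-/- from 1.38 (SD 0.25, n = 4) to 0.15 (SD 0.09, n = 3), and PA2 labelled Hoxa2-/- from 0.82 (SD 0.13, n = 4) to 0.28 (SD 0.06, n = 3). The mean ratio was thus lower at E10.5 than at E9.0 in all 4 series of stages, on both sides of the library division. This is a description with no test. The log2 ratio of Dlx6 to Dlx5 stayed between -3.496 and -2.69 in all 16 group means. That of Dlx4 to Dlx3 was higher at E10.5 than at E9.0, with -5.14 (SD 0.79, n = 4) and -2.87 (SD 0.31, n = 3) in wildtype PA2, where Dlx4 had few reads at E9.0. With 1 CPM added to each value these means were -2.76 and -2.78, and -2.86 and -3.11 in PA2 labelled Hoxa2-/-. The rise in PA2 was thus not kept on that scale. In PA1 it was kept, at -4.11 and -2.996 in wildtype embryos and -3.64 and -3.13 under the label Hoxa2-/-. The ratio of the distal pair Dlx3 and Dlx4 to Dlx5 and Dlx6 went in wildtype PA2 from -1.67 (SD 0.42, n = 4) at E9.0 to 1.04 (SD 0.10, n = 5) at E10.0 and 0.64 (SD 0.26, n = 3) at E10.5. In wildtype PA1 it was -0.87 (SD 0.24, n = 5), -0.02 (SD 0.16, n = 5) and -0.60 (SD 0.36, n = 3) at these stages. The wildtype E10.0 means lie across the library division from the others. Under the label Hoxa2-/-, with all stages on the same side, it averaged -1.54, 0.64 and 0.29 in PA2 and -1.18, 0.18 and -0.36 in PA1 at E9.0, E10.0 and E10.5.

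The labels were compared last, with the reservations on Hoxa2 and the library division given above. Dlx2 in PA2 at E10.5 was the only member that passed, and it was higher under the label Hoxa2-/-, where 10.3% of all genes differed. It had 136.5, 112.3 and 112 CPM under that label and 67.4, 62.8 and 82.5 CPM in wildtype PA2. The groups did not overlap, and the difference was 0.76 (SE 0.23, 95% confidence interval 0.29 to 1.22, adjusted p = 0.026). The call was lost without wildtype embryo 1 (0.73, adjusted p = 0.086) or 2 (0.68, adjusted p = 0.11), and without Hoxa2-/- embryo 1 (0.66, adjusted p = 0.11), 2 (0.80, adjusted p = 0.053) or 3 (0.81, adjusted p = 0.053). The sum of 4 endothelial markers in these libraries ran from 133 to 160 CPM under the label Hoxa2-/- and from 103 to 120 CPM in wildtype, and that of mesenchyme markers from 496 to 524 and from 497 to 617 CPM. Per 100 CPM of mesenchyme markers Dlx2 averaged 23.5 and 12.8, and the part of endothelium was not tested. At E10.0, where both labels lay on the same side of the division, Dlx2 in PA2 had 111, 127, 113, 84.7 and 79.0 CPM under the label Hoxa2-/- and 87.0, 104, 66.8, 78.2 and 57.1 CPM in wildtype. These groups overlapped, with a difference of 0.39 (95% confidence interval 0.03 to 0.75, adjusted p = 0.62). In PA1 at E10.5 the label Hoxa2-/- was above wildtype without overlap for Dlx2 as well (75.7, 77.7 and 65.9 CPM against 54.6, 55.2 and 64.0 CPM), with a difference of 0.33 (SE 0.23, adjusted p = 0.55).

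Dlx1 in PA2 had a higher mean under the label Hoxa2-/- at all 4 stages, and no difference passed the test. The differences were 0.46 (95% confidence interval 0.09 to 0.84, adjusted p = 0.090) at E9.0, 0.50 (0.14 to 0.85, adjusted p = 0.095) at E9.5, 0.31 (-0.02 to 0.65, adjusted p = 0.66) at E10.0 and 0.56 (0.13 to 1.00, adjusted p = 0.088) at E10.5. At E10.5 it had 110, 97.1 and 89.6 CPM under that label and 57.1, 82.8 and 62.1 CPM in wildtype, with no overlap. Its call appeared without Hoxa2-/- embryo 4 at E9.0 (0.59, adjusted p = 0.044), with DESeq2 at E9.5 (0.53, adjusted p = 0.049) and in a model of just those groups at E10.5 (0.56, adjusted p = 0.029). Dlx4 in PA2 at E10.5 lay lower under the label Hoxa2-/-, with 9.38, 7.36 and 9.04 CPM against 12.7, 12.5 and 13.5 CPM. Its groups did not overlap, and the difference of -0.54 (95% confidence interval -1.35 to 0.26, adjusted p = 0.44) did not pass, except in a model of just those groups (adjusted p = 0.028). Dlx3, Dlx5 and Dlx6 in PA2 at E10.5 differed by -0.21 (-0.98 to 0.57), 0.14 (-0.55 to 0.83) and -0.27 (-0.84 to 0.31).

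In PA2 at the 3 earlier stages, 0 of 6 members passed between the labels in the limma fit, where 14.0%, 4.48% and 0.0814% of all genes did. In PA1, 0 of 6 passed at any stage, where 2.08%, 23.6%, 0% and 3.05% of all genes did from E9.0 to E10.5. The difference between the label effects of PA2 and PA1 passed for 0 of 6 members at each stage, where 0%, 0.0109%, 0.0163% and 0.0380% of all genes passed. At E10.5 it was 0.43 for Dlx2 (95% confidence interval -0.23 to 1.09) and 0.37 for Dlx1 (-0.24 to 0.98), so an effect of the label confined to PA2 was not shown for either.

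**Figure D3:**
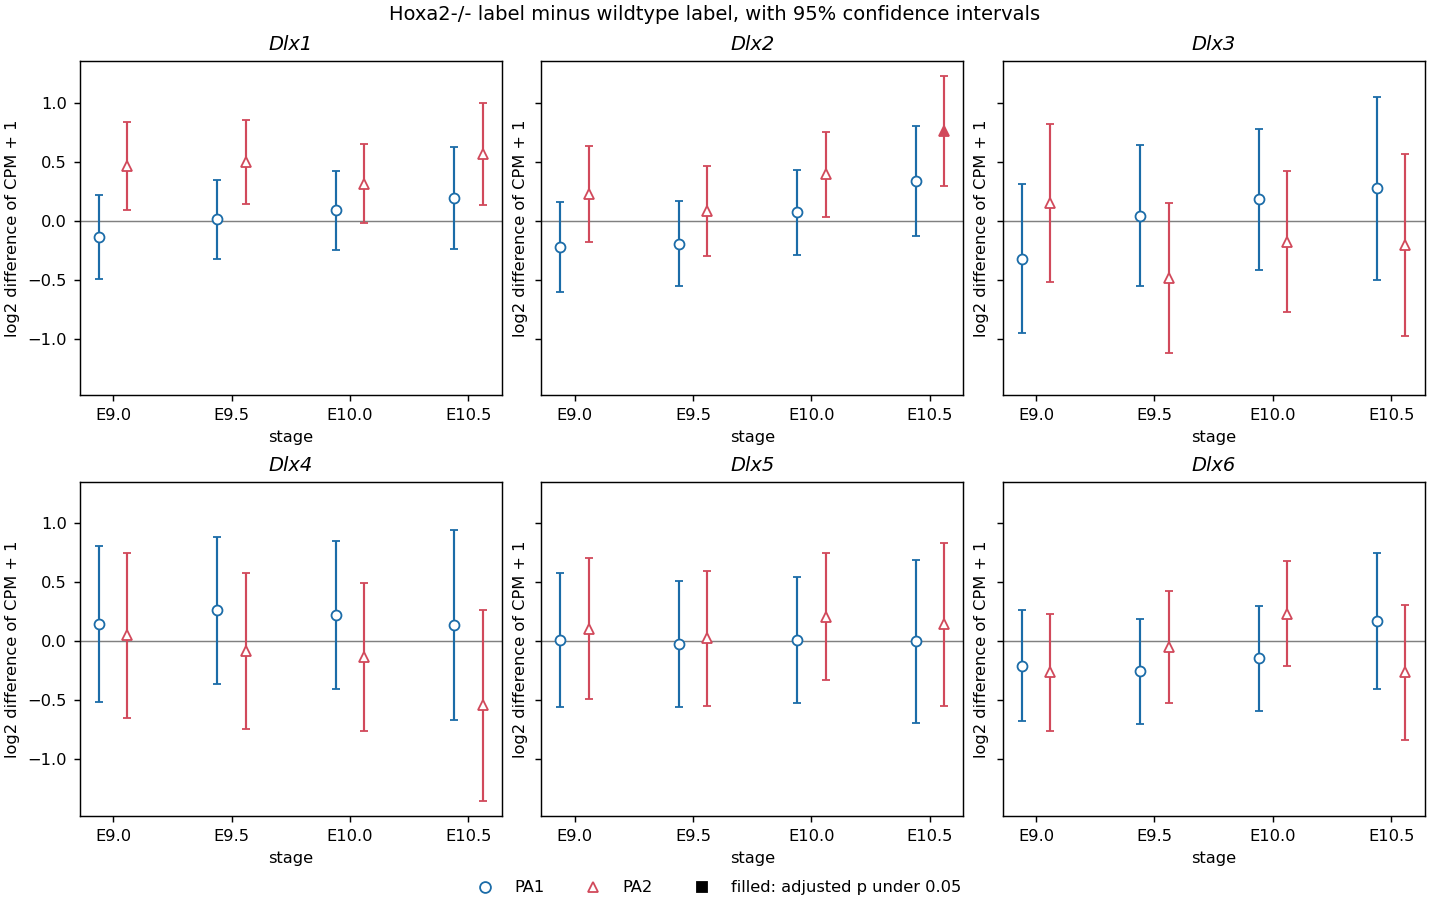
Log2 difference between the labels (Hoxa2-/- minus wildtype) for each Dlx gene by stage, with 95% confidence intervals. Circles are PA1, triangles PA2, and the filled symbol has an adjusted p under 0.05. It is Dlx2 in PA2 at E10.5, at 0.76, and the PA2 values of Dlx1 lie between 0.31 and 0.56 at all 4 stages.

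Dlx6os1, also known as Evf2, is a long noncoding RNA whose gene model begins between Dlx5 and Dlx6 and runs antisense across Dlx6 (ENSMUSG00000090063, chr6:6820189-6871592, minus strand). It shares no exon bases with either gene in the annotation. Of the 2 RefSeq starts shown here, the first lies between the genes and the second beyond Dlx6. RefSeq promoter windows on GRCm38.p6 were matched for Dlx1 and Dlx2 of the 6 members, and the windows are shown here for Dlx2 and for the 2 starts of Dlx6os1. They are the 250 bases before each start, on the gene's own strand. Capitals mark TAATT or its reverse complement AATTA, the core that Dlx homeodomains bind, and CANNTG, the E-box bound by bHLH factors such as Hand2 and Twist1. Overlapping matches were counted separately, and no TAATT match overlapped an E-box.
Dlx2, chr2:71546755-71547004, minus strand: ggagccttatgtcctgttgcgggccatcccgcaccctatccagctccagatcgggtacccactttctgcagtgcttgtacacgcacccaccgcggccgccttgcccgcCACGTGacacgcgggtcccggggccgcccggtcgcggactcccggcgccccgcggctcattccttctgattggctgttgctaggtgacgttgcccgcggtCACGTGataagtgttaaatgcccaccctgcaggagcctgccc
Dlx6os1, chr6:6869534-6869783, minus strand: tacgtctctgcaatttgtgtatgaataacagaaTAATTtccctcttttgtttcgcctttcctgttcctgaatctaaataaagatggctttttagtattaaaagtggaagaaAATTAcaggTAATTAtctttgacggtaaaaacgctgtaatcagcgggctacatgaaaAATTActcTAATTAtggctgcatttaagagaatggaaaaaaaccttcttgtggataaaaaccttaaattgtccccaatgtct
Dlx6os1, chr6:6861684-6861933, minus strand: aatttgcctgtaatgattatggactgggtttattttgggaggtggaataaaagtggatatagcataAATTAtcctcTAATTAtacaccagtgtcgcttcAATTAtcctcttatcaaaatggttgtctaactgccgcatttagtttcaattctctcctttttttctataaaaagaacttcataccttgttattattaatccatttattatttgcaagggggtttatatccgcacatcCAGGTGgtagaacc
The Dlx2 window held 0 TAATT matches and 2 E-boxes, both CACGTG. The Dlx6os1 windows held 7 and 4 TAATT matches and 0 and 1 E-boxes. Of 32851 windows of this length, 25% held TAATT on either strand and 66.2% an E-box, while 1.4% held at least 4 TAATT matches and 0.11% at least 7. A match describes the letters only.

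Dlx6os1 had 31.3, 36.7, 25.8, 34.1 and 24.5 CPM in wildtype PA1 at E9.0 and 4.94, 3.53, 7.17 and 2.81 CPM in PA2. The groups lay far apart, with a difference of -2.53 (SE 0.39, adjusted p = 1.5e-06). The libraries labelled Hoxa2-/- had 8.78, 43.1, 10.45 and 51.9 CPM in PA1 and 0.767, 8.13, 1.04 and 3.78 CPM in PA2, a difference of -2.67 (SE 0.41, adjusted p = 1.5e-06). Embryos 1 and 3 were low in both arches, as they were for Dlx3 in PA1. At E9.5 the differences were -1.32 (SE 0.39, adjusted p = 0.0091) and -1.31 (SE 0.36, adjusted p = 0.013), and at E10.5 0.74 (SE 0.47, adjusted p = 0.94) and 0.19 (SE 0.47, adjusted p = 0.95). Wildtype PA2 at E10.5 had 164, 176 and 189 CPM, above the 92.7, 104 and 120 CPM of PA1. In PA2 Dlx6os1 rose by 5.04 (SE 0.44, adjusted p = 7.2e-14) between E9.0 and E10.5 in wildtype embryos and by 4.99 (SE 0.44, adjusted p = 4.5e-13) under the label Hoxa2-/-. In PA1 it rose by 1.77 (SE 0.42, adjusted p = 0.00049) and 2.12 (SE 0.44, adjusted p = 0.00014). The arch difference changed between these stages by 3.27 (SE 0.61, adjusted p = 0.00031) and 2.86 (SE 0.62, adjusted p = 0.0025).

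Dlx4os (ENSMUSG00000086552, chr11:95145052-95159047, plus strand) lies head to head with Dlx4 and overlaps its first bases. It had 2, 3, 0 and 2 reads in wildtype PA2 at E9.0 and 40.9, 34.5 and 36.4 CPM at E10.5, a rise of 5.13 (SE 0.48, adjusted p = 5.1e-13). In wildtype PA1 it rose by 2.97 (SE 0.45, adjusted p = 3.2e-07), in PA2 labelled Hoxa2-/- by 4.28 (SE 0.48, adjusted p = 2.1e-10) and in PA1 of that label by 2.80 (SE 0.48, adjusted p = 5.5e-06). At E9.5 it was lower in PA2 than in PA1, by -1.60 (SE 0.42, adjusted p = 0.0035) in wildtype embryos and by -1.65 (SE 0.39, adjusted p = 0.0030) under the label Hoxa2-/-. In embryo 4 labelled Hoxa2-/- at E9.5, the embryo with high Dlx3 and Dlx4 in PA2, Dlx4os was at 17.6 CPM in PA2 and at 0 to 1.39 CPM in the other 4. Dlx6os1 in that library was at 106 CPM, against 16.7 to 34.4 CPM in the other 4. Dlx1as, antisense to Dlx1, was at most 3.79 CPM in any library. It rose by 1.29 in wildtype PA2 (SE 0.19, adjusted p = 1.4e-07) and by 1.14 in wildtype PA1 (SE 0.18, adjusted p = 5.9e-07) from E9.0 to E10.5. Of these 3 antisense genes, 1 passed between the labels in PA2 at E10.5, where 10.3% of all genes did. Dlx1as was lower under the label Hoxa2-/-, with 1.75, 0.72 and 1.33 CPM against 2.12, 3.79 and 1.89 CPM (-0.66, SE 0.20, adjusted p = 0.025). Dlx6os1 had 118.5, 102.1 and 113.6 CPM there, below the wildtype values given above, with a difference of -0.66 (SE 0.47, adjusted p = 0.42). Dlx4os had 25.4, 19.6 and 18.2 CPM, also below wildtype, at -0.81 (SE 0.51, adjusted p = 0.34). Dlx6os2 did not pass the filter on low values.

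**Figure D4:**
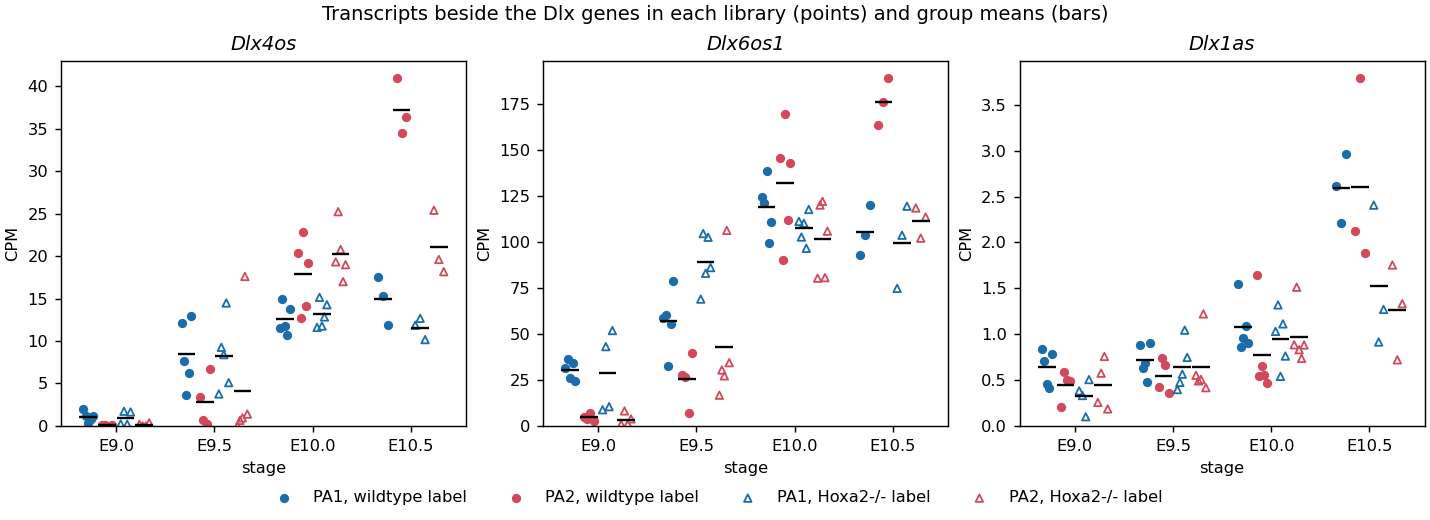
CPM of Dlx4os, Dlx6os1 and Dlx1as in every library, by stage. Points are libraries, black bars are group means, colours and symbols are as for the Dlx genes, and each panel has its own linear axis. Dlx4os and Dlx6os1 are close to 0 in PA2 at E9.0 and highest in wildtype PA2 at E10.5, where Dlx6os1 is at 164 to 189 CPM.

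Within a group, neighbouring genes deviated together from library to library. After the group mean was taken from each log2 value, Dlx1 and Dlx2 correlated with r = 0.76 and rho = 0.59 over 35 PA1 libraries (permutation p = 7e-05 and 0.00067, adjusted 0.00054 and 0.0033). Over 33 PA2 libraries they gave r = 0.84 and rho = 0.82 (permutation p = 1e-05, the smallest that 100000 shuffles within groups can give, and 3e-05, adjusted 0.00015 and 0.0006). Dlx5 and Dlx6 gave r = 0.73 and rho = 0.71 in PA1 (permutation p = 8e-05 and 0.00019, adjusted 0.00054 and 0.0011) and r = 0.81 and rho = 0.73 in PA2 (permutation p = 9e-05 and 0.00016, adjusted 0.00054 and 0.0011). Dlx3 and Dlx4 gave r = 0.66 and rho = 0.45 in PA1 (permutation p = 0.011 and 0.048, adjusted 0.031 and 0.091) and r = 0.81 and rho = 0.58 in PA2 (permutation p = 0.0035 and 0.0066, adjusted 0.012 and 0.022). The relations were also taken without the 2 libraries farthest from the median of the first-named gene. The 3 pairs then had r of 0.64, 0.71 and 0.48 in PA1 and 0.82, 0.73 and 0.59 in PA2. The p-values were two-sided and adjusted over 30 relations, 15 in each arch.

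Genes on different chromosomes could be as close as neighbours. Dlx3 and Dlx5 gave r = 0.74 and rho = 0.71 in PA1 (permutation p = 1e-05 and 0.00016, adjusted 0.00015 and 0.0011) and r = 0.61 and rho = 0.76 in PA2 (permutation p = 0.00089 and 4e-05, adjusted 0.0038 and 0.0006). Dlx2 and Dlx5 gave r = 0.73 and rho = 0.57 in PA1 (permutation p = 0.00083 and 0.0021, adjusted 0.0038 and 0.009) and r = 0.55 and rho = 0.55 in PA2 (permutation p = 0.01 and 0.009, adjusted 0.031 and 0.027). Without the 2 farthest libraries these r were 0.75 and 0.55 for Dlx3 with Dlx5, and 0.52 and 0.61 for Dlx2 with Dlx5. In all, 7 of 15 relations in PA1 and 5 of 15 in PA2 passed by r, and 5 of 15 in each arch by rho. The same relations were not computed for pairs of other genes, so no background share stands beside these counts. Dlx1 and Dlx4, at the outer ends of the nested domains, gave r = 0.11 and rho = 0.22 in PA1 (permutation p = 0.54 and 0.24, adjusted 0.58 and 0.29) and r = 0.19 and rho = 0.09 in PA2 (permutation p = 0.36 and 0.61, adjusted 0.42 and 0.68). Without the 2 farthest libraries they were at 0.08 and 0.25. The libraries of a group share stage and label but can differ in the share of mesenchyme, whose part in these relations was not tested.

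**Figure D5:**
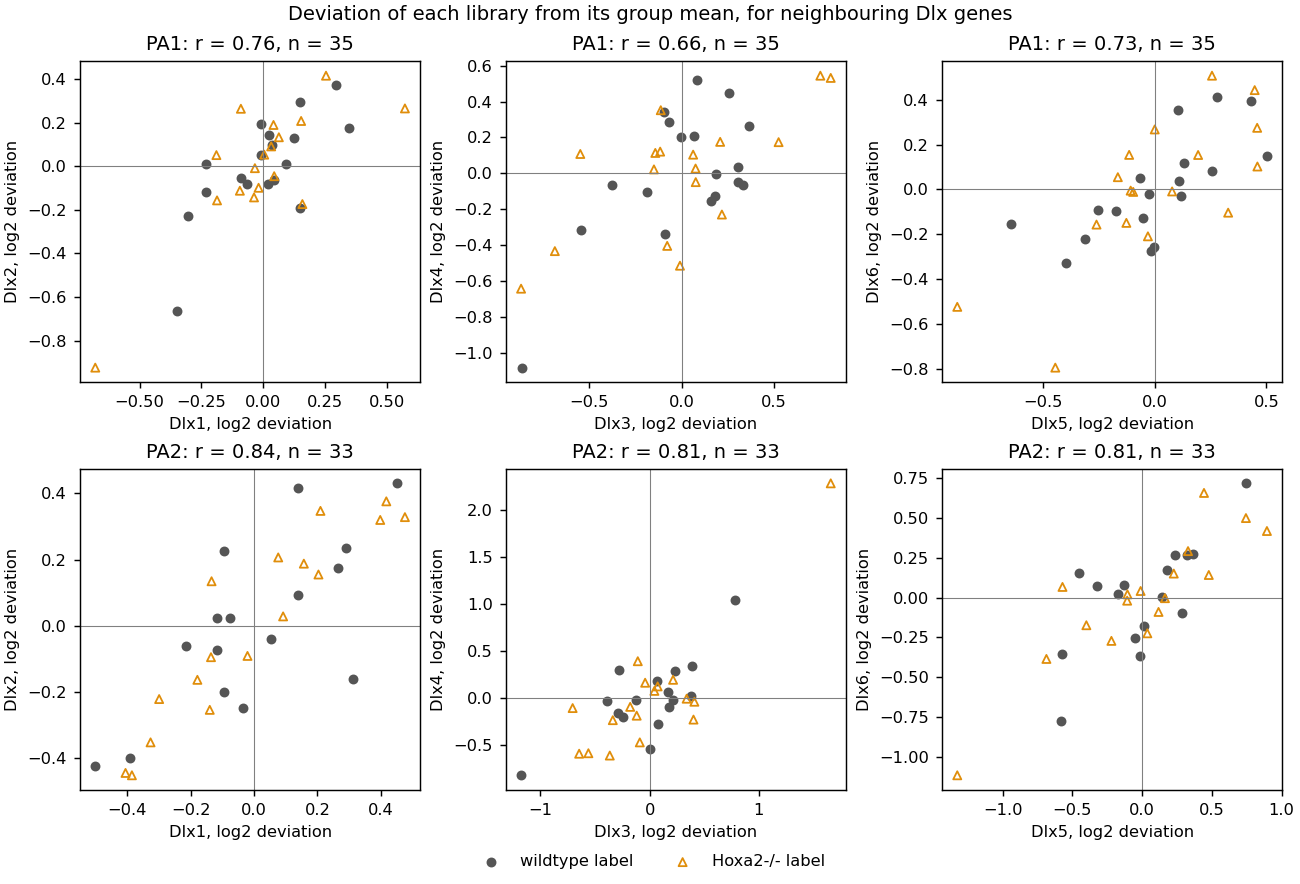
Log2 deviation of each library from its group mean for Dlx1 and Dlx2, Dlx3 and Dlx4, and Dlx5 and Dlx6, with PA1 (n = 35) in the upper row and PA2 (n = 33) in the lower row. Filled circles are wildtype libraries and open triangles libraries labelled Hoxa2-/-. The clouds slope upward in all 6 panels, with r from 0.66 to 0.84, and in PA2 a single library labelled Hoxa2-/- lies far out for Dlx3 and Dlx4.

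Genes most like each member were found over the 68 libraries after the mean of each label and stage was taken away, among 10503 genes. Dlx3 was most like Epha3, an Eph receptor (r = 0.86), Mab21l2 (r = 0.86) and Gas1 (r = 0.83). Dlx5 was most like the retinoic acid receptor gene Rarg (r = 0.84), Serpinf1 (r = 0.84) and the cartilage regulator Sox9 (r = 0.83). Dlx6 was most like Rarg (r = 0.77), Mab21l1 (r = 0.77) and the mesenchyme homeobox gene Prrx1 (r = 0.76). Dlx2 was most like Sh2b2 (r = 0.85), Sf3a1 (r = 0.81) and the chromatin remodeller gene Chd7 (r = 0.81). Dlx4 was most like Lpar1 (r = 0.79), Trpm1 (r = 0.76) and Gas1 (r = 0.73), and Dlx1 was most like Ctbp2 (r = 0.68), Limd2 (r = 0.68) and Brd3 (r = 0.65). The members of a pair shared a name for Dlx3 and Dlx4 (Gas1) and for Dlx5 and Dlx6 (Rarg). The choice was made by rank over genes and carries no test. With no means taken away, Dlx3 was led by Fbln5 (r = 0.92), Dlx4 by Trpm1 (r = 0.93), Dlx5 and Dlx6 by Rarg (r = 0.85 and 0.82), Dlx2 by Sh2b2 (r = 0.84) and Dlx1 by Dact3 (r = 0.84).

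The signals upstream of the ventral Dlx genes were read from a list of 10 genes of the endothelin and BMP pathways. Edn1, the ligand, was higher in wildtype PA2 at E9.5 by 0.75 (adjusted p = 0.018) and at E10.0 by 1.25 (adjusted p = 9.3e-05), and under the label Hoxa2-/- by 0.84 (adjusted p = 0.012) and 0.97 (adjusted p = 0.0051). At E9.0, when the Dlx genes were lower in PA2, Edn1 did not pass, and Bmp4, another ventral signal, was higher in PA2 by 1.10 (adjusted p = 0.0012) in wildtype embryos and by 1.46 (adjusted p = 4.6e-05) under the label Hoxa2-/-. In wildtype embryos 1, 3, 1 and 0 of the 10 genes were higher in PA2 from E9.0 to E10.5 and 0 were lower, with medians from -0.14 to 0.37. Of all genes, 18.7%, 26.3%, 5.94% and 1.52% passed in either direction at these stages. Under the label Hoxa2-/- 1, 1, 1 and 0 were higher and 1, 0, 0 and 0 lower. The shares of all genes there were 24.6%, 9.58%, 4.23% and 1.37%. Over time Edn1 fell from E9.0 to E10.5, by 3.33 in wildtype PA2 (adjusted p = 1.7e-14) and by 3.16 in wildtype PA1 (adjusted p = 1.7e-14), as Dlx3 and Dlx4 rose in PA2. Mef2c, a transcription factor that acts between the receptor and the Dlx genes, fell by 2.76 (adjusted p = 1.7e-09) in wildtype PA2, while Ednra rose by 0.77 (adjusted p = 0.0011). Other tissues moved in wildtype PA2 over the same stages. The median sum of heart genes went from 624 to 1.79 CPM and that of epithelial markers from 854 to 422 CPM. Their part in the falls of Edn1 and Mef2c was not tested. Of the 10 genes, 2 rose and 4 fell between these stages in each wildtype arch, where 42.5% of all genes changed in PA1 and 36.9% in PA2.

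A list of 14 genes of the lower jaw program, among them Dlx5 and Dlx6 targets such as Hand2, Gbx2 and Alx4, was compared between the arches in the same way. In wildtype embryos 2, 2, 0 and 0 were higher in PA2 from E9.0 to E10.5 and 5, 3, 5 and 5 were lower, with medians of -0.19, -0.19, -0.72 and -0.95 beside -0.02 to 0.01 over all genes. Of all genes, 18.7%, 26.3%, 5.94% and 1.52% passed in either direction at these stages. At E10.5, when the Dlx3 and Dlx4 values of PA2 lay above those of PA1, the lower genes included Pitx1 (-4.93), Alx4 (-3.12), Msx2 (-2.10) and Msx1 (-1.54). Barx1, a homeobox gene of the distal arch, was lower in wildtype PA2 at E9.0 by -2.87 (adjusted p = 3.7e-05) and at E9.5 by -2.12 (adjusted p = 0.0019), and did not pass at E10.0 or E10.5. Gbx2 went the other way at E9.0, with 2.45 (adjusted p = 2.1e-12). From E9.0 to E10.5, 11 of the 14 rose and 0 fell in wildtype PA1, and 7 rose and 2 fell in wildtype PA2, beside 42.5% and 36.9% of all genes changed in either direction. In wildtype PA2 Barx1 (3.89, adjusted p = 3.5e-07) and the jaw gene Gsc (3.76, adjusted p = 1.7e-14) had the largest rises. With the label Hoxa2-/-, 11 rose and 0 fell in PA1, and 10 rose and 2 fell in PA2, beside 31.2% and 30.9% of all genes.

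Of 8 genes of the upper jaw or dorsal arch, 2, 3, 5 and 2 were higher in wildtype PA2 from E9.0 to E10.5 and 0 were lower, beside the same shares of all genes. Jag1, a Notch ligand that opposes the ventral program, was among them at E9.0 (0.76, adjusted p = 0.0097), E9.5 (1.42, adjusted p = 2.9e-06) and E10.0 (1.21, adjusted p = 2.4e-05). Between the labels in PA2 at E10.5, 10.3% of all genes passed in either direction, Dlx2 among them. There 3 of the 14 lower jaw genes were higher under the label Hoxa2-/-: Pitx1 (2.15, adjusted p = 3.5e-05), Alx4 (1.05, adjusted p = 0.028) and Msx2 (0.84, adjusted p = 0.012). Of the 8 upper jaw genes Jag1 was higher (1.11, adjusted p = 0.0037), and Meis2 (-0.66, adjusted p = 1.2e-08) and Nr2f1 (-0.64, adjusted p = 0.049) were lower. At E10.0 Meis2 (-0.47, adjusted p = 6.3e-07) and Nr2f1 (-0.81, adjusted p = 0.018) were lower as well. Of the 14 lower jaw genes 0 were called there, where 0.0814% of all genes passed. For Meis2, a cofactor of Hox proteins, the label effect differed between PA2 and PA1. The difference was -0.49 (adjusted p = 0.0013) at E10.0 and -0.87 (adjusted p = 1e-06) at E10.5. No Dlx gene passed this test at any stage, which does not show that they lack such a difference. Their estimates were wide, with SE from 0.31 for Dlx1 to 0.57 for Dlx4 at E10.5.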

How the data were processed

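The authors deposited a table of 21948 Ensembl genes by 68 libraries as CPM-like signal values, scaled per library, with column totals from 926298 to 1051959. Libraries were made with SMART-seq v4 and Nextera XT without molecular identifiers, per the labels' protocols. The submitters' processing notes name bcl2fastq 2.18, TopHat2 2.1.1, R 3.3.2 and the build mm10. The counting program, its annotation, its use of strand and the scaling are not given in the sources used here.

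Whole reads were recovered from the steps between low values (100% of values within 0.01 reads of a whole number), and gave 8912251 to 20619153 reads per library. A value of 1 read was 0.0467 to 0.109 CPM, and a count of 0 allows up to 3 reads (0.14 to 0.328 CPM). Such limits cover counting error only.

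Genes reaching 1 CPM in 3 or more libraries were tested (18428). log2(CPM + 1) was fitted with limma 3.58.1 in R 4.3.3, with 16 group means over all 68 libraries and a mean-variance trend. Tests were two-sided, adjusted by Benjamini-Hochberg over all genes tested, with a threshold of 0.05. A residual spread shared by all groups was assumed, and the labels do not say whether embryos came from separate litters. Adjusted p-values of differences are from this limma fit unless an alternative fit is named, among them edgeR 4.0.16 and DESeq2 1.42.0 on the recovered reads. Those of the correlations are from the permutations.

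Replicate numbers were taken to mark embryos. Over 33 embryos with both arches the deviations of PA1 and PA2 correlated with a median r of 0.35 (30 over 0.1). For 116 pairs from different embryos the median was -0.12 (13 over 0.1). A fit with the embryo as replicate block was run as an alternative. The fit was also repeated with median-of-ratios scaling, with an added constant of 0.25 or 5, with the filter dropped or raised to 5 CPM, with the compared groups alone, and without each library in turn. Replicates differed by more than sampling noise (chi-square per degree of freedom 6.38 to 107).

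Symbols came from GENCODE M21 (21921 genes matched). Promoter windows were RefSeq, GRCm38.p6. Named genes were the 6 members, their antisense transcripts, genes of the pathway lists (values of 1 list gene are not reported here), and the 3 genes of mean CPM of at least 5 most correlated with each member. The members, lists and tests were chosen with earlier results of these data known.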

Additional observations from a re-analysis of the deposited data

Results flagged for a closer look

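In 7 of 72 sets of 4 or 5 replicate values of a Dlx gene, a library lay far from the others, which chance gives in about 1 set in 20. Under the label Hoxa2-/- in PA2 at E9.5, embryo 4 had 108 CPM of Dlx3 and 13 CPM of Dlx4, beside 21.0 to 31.4 and 0.871 to 1.06 CPM in the other 4. In PA1 of that label Dlx2 was at 40.5 CPM in embryo 3 at E9.5 (88.8 to 93.7 in the others) and at 126 CPM in embryo 1 at E10.0 (84.6 to 91.4). In the same E10.0 group Dlx5 was at 74.5 CPM in embryo 1 (54.1 to 59.1) and Dlx4 at 4.98 CPM in embryo 3 (8.18 to 8.65). In wildtype PA1 at E10.0 Dlx4 was at 7.93 CPM in embryo 2 (5.83 to 6.11).

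The difference between the arches changed from E9.0 to E10.5 past the limma threshold for Dlx2 (1.15), Dlx3 (3.20) and Dlx4 (2.07) in wildtype embryos and for Dlx2 (1.12) and Dlx3 (2.25) under the label Hoxa2-/-.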

How the results depend on the processing

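No test of a Dlx gene changed sign past the threshold under the alternatives run. Of 24 comparisons of the arches per label, 5 passed in wildtype embryos, 11 in a model of just the compared groups and 10 with the replicate block, and leaving out a library gave 4 to 6. Under the label Hoxa2-/- 5 passed, and leaving out a library gave 3 to 5, the lowest without PA2 embryo 3 or embryo 5 of E9.5. Between the labels in PA2, 1 of 24 passed, 3 in a model of just the compared groups and 2 with DESeq2, and leaving out a library gave 0 to 2. Of 48 steps between stages under the label Hoxa2-/-, 18 passed and 7 did in a model of just the compared groups. Of 12 changes of the arch difference 5 passed, and 9 with the replicate block, which changed no call beyond the 11 given with the results. The cause was not tested. Of 216 tests, 214 kept their side of the threshold with no filter, 213 with a filter at 5 CPM or median-of-ratios scaling, 211 and 209 with pseudocounts of 5 and 0.25, 209 with edgeR, 207 with DESeq2 and 181 in a model of just the compared groups. Without 3 E10.0 libraries with yolk sac transcripts, an alternative chosen after seeing the data, 54 of 54 did. Depth limits Dlx4 in PA2 at E9.0, where it had at most 10 reads in each library.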

Other observations

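Among the E9.0 embryos labelled Hoxa2-/-, embryos 1 and 3 were low in the ventral members in PA1. Dlx4 was at 0.382 and 0.597 CPM there and at 2.12 and 2.15 CPM in embryos 2 and 4, and Dlx6 at 4.73 and 2.69 CPM beside 7.68 and 8.07 CPM. Dlx1 was also lower in embryos 1 and 3, but its values lay closer together, at 27.8 and 31.1 CPM beside 33.3 and 35.6 CPM. Dlx2 did not show this split, at 85.9 and 82.4 CPM beside 91.0 and 73.4 CPM.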
